A study of Homo sapiens with 4 samples.

Results

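Annexins A1, A2, A3, A4, A5, A6 and A11 and the S100 proteins A6, A10 and A11 are encoded by 10 genes that were taken by symbol from a table of 17472 listed genes. All 10 were listed, and all 10 were among the 15721 genes with enough reads to be tested. They were chosen with their values in these libraries already known, so the difference between the groups in these 10 genes is given as a description, with no p-value for any of them, and a count of their calls in the fit over all genes is printed only beside the share of all genes. Poly(A) RNA was sequenced from H1, a long-established human embryonic stem cell line, in 2 groups of 2 libraries. The WT group was unmodified H1 cells. The MEK5DD group was 1 H1 line made by lentiviral transfer of MEK5DD, a form of the kinase MAP2K5 in which a pair of residues is replaced by aspartate, followed by selection with puromycin. Both groups were grown in E8, a defined medium with FGF2 and TGF-beta. The samples hold no H1 cells with an empty vector and the same selection, so delivery, selection and the choice of line cannot be told apart from MEK5DD itself. The labels do not say whether the replicates were separate cultures. Every p-value below sets the difference between the groups against the spread within them, and that spread may be technical. With 2 libraries per group it is also partly estimated from other genes.

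Annexins are soluble proteins that bind acidic phospholipids of a membrane when calcium rises, and they act in membrane repair, vesicle traffic and the linkage of membrane to cortical actin. S100 proteins are small and mostly form dimers, and most of them, but not all, sense calcium through EF hands. Several S100 proteins dock on the N-terminal tail of an annexin and join annexins on neighbouring membranes. Annexin A2 pairs with S100A10, annexin A1 with S100A11, and annexin A11 with S100A6. Annexin A5 has a short tail and is best known for binding exposed phosphatidylserine.

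In each of the 10 genes both MEK5DD libraries lay above both WT libraries. That arrangement was found in 28.2% of all tested genes. The size of the difference ran from 7.95-fold for ANXA1 and 2.74-fold for ANXA2 to 1.09-fold for ANXA5, which was nearly level. The median log2 fold change was 0.82 over the 10 genes and -0.002 over all genes tested. In the fit over all genes (limma on log2 of the normalised read count plus 1, adjusted p under 0.05) 9 of the 10 were called higher, against 7.69% of all tested genes called higher and 6.47% called lower. Nothing is read from that count, because the genes were picked from this contrast. In bulk RNA, fewer cells of a type and less RNA per cell cannot be told apart, nor can more of either.

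**Figure D1:**
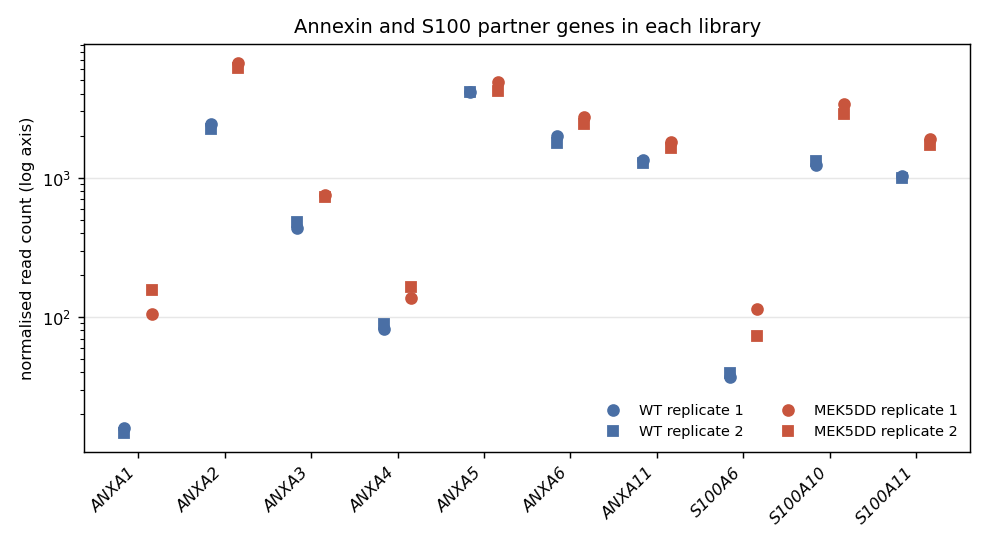
Normalised read count (log axis) of each of the 10 genes in the 2 WT libraries (blue) and the 2 MEK5DD libraries (red), with circles for replicate 1 and squares for replicate 2. The red points lie above the blue points for every gene, by the most for ANXA1 (WT 15.9 and 14.6, MEK5DD 104 and 156) and by the least for ANXA5 (WT 4137 and 4101, MEK5DD 4868 and 4173).

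The DNA just upstream of the start sites is shown for 4 genes: the ANXA2 and S100A10 pair, which rose by like amounts, ANXA1, which differed the most, and ANXA5, which differed the least. Each sequence is the 250 bases before a RefSeq start (GRCh38.p14), 5′ to 3′ on the strand of the gene. Capitals mark any match to 5 motifs, searched on both strands: AP-1 (TGANTCA), CRE (TGACGTCA), TEAD (GGAATG), GC box (GGGCGG) and TATAAA; the CArG box was also searched.
ANXA1, chr9:73151615-73151864, plus strand: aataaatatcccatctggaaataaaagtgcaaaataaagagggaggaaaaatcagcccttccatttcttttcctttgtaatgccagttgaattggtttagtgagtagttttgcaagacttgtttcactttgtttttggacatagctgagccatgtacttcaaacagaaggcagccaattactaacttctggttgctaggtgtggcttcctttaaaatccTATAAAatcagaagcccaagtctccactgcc
ANXA2, chr15:60397987-60398236, minus strand: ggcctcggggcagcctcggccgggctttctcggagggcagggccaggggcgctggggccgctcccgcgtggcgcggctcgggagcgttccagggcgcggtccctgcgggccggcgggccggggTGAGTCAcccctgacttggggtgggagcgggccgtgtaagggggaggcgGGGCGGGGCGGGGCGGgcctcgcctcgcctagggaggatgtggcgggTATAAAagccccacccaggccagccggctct
S100A10, chr1:151993860-151994109, minus strand: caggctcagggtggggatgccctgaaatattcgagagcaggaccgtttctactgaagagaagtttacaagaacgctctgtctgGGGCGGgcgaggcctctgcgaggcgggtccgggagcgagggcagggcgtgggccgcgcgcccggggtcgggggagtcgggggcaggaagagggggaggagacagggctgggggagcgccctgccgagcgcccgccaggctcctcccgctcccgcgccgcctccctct
ANXA5, chr4:121696981-121697230, minus strand: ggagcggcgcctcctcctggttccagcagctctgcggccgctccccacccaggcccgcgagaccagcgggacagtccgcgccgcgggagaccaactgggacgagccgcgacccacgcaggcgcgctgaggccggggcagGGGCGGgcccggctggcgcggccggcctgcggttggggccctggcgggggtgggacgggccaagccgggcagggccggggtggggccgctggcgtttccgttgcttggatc

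The ANXA1 sequence stood apart in composition. It had 38.4% G and C and 0 CpG pairs, where the other 13 promoters of the 10 genes had 50% to 78.8% G and C and 5 to 36 CpG pairs. Over all 35116 RefSeq promoters of the same length the median was 58% G and C, and 6.06% held no CpG pair. The ANXA1 sequence has TATAAA 31 bases before the start. The ANXA2 sequence also has TATAAA 31 bases before the start, behind a run of 3 overlapping GC boxes and 1 AP-1 match (TGAGTCA) 127 bases before it. S100A10 and ANXA5, which are far apart in their difference between the groups, each held a single GC box and none of the other motifs.

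Over all 14 promoters of the 10 genes, 9 held a GC box, against 42.6% of all promoters. TATAAA was found in 3 (ANXA1, ANXA2 and 1 of the ANXA11 promoters), against 10.7% of all promoters, and AP-1 in 1, against 6.57%. CRE, CArG box and TEAD matches were found in 0 of the 14, against 1.65%, 1.16% and 11.9% of all promoters. Each match is a string of letters in a window, not a bound site.

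ANXA2 and S100A10 encode the partners of a heterotetramer that links 2 annexin molecules through an S100A10 dimer and is known as a plasminogen receptor on the cell surface. ANXA2 (chromosome 15, 60347134 to 60402883, minus strand, GRCh38) had a normalised read count of 2419.5 and 2243 in WT and 6706 and 6078 in MEK5DD, in the order replicate 1, replicate 2. The groups did not overlap, and the log2 fold change was 1.45 (SE 0.07). S100A10 (chromosome 1, 151982915 to 151994390, minus strand) had 1233 and 1319 in WT and 3355 and 2877 in MEK5DD. These groups did not overlap either, and the log2 fold change was 1.28 (SE 0.08). The partners kept nearly the same proportion. Per kilobase of transcript, ANXA2 was at 1.41 and 1.22 times S100A10 in WT and at 1.43 and 1.51 times in MEK5DD, so that across the 4 pairs of a MEK5DD and a WT library this ratio changed by 1.02 to 1.24 times.

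ANXA1 and S100A11 encode another annexin and its S100 partner. Annexin A1 is a glucocorticoid-regulated protein that restrains inflammation and takes part in sealing wounded plasma membrane. ANXA1 (chromosome 9, 73151757 to 73170393, plus strand) was the least abundant of the 10 in WT, at 15.9 and 14.6, which rest on 18 and 14 reads. In MEK5DD it reached 104 and 156, from 115 and 157 reads. The 4 ratios of a MEK5DD to a WT library ran from 6.59 to 10.7, and the log2 fold change of 2.99 had the largest SE (0.25). S100A11 (chromosome 1, 152032506 to 152047907, minus strand), far more abundant, had 1032 and 992 in WT and 1885 and 1707 in MEK5DD (log2 fold change 0.83, SE 0.08). This pair did not keep its proportion as ANXA2 and S100A10 did: the ratio of ANXA1 to S100A11 changed by 3.61 to 6.23 times.

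S100A6 and ANXA11 moved by unequal amounts in the other order. S100A6, also called calcyclin, is a cell-cycle-linked S100 protein that is abundant in fibroblasts and epithelia. S100A6 (chromosome 1, 153534599 to 153536244, minus strand) had 37.0 and 39.6 in WT and 114 and 72.8 in MEK5DD. The MEK5DD replicates were far apart, and the log2 fold change of 1.23 (SE 0.24) became 0.91 without MEK5DD replicate 1 and 1.55 without MEK5DD replicate 2. ANXA11, whose product tethers RNA granules to lysosomes, lies on chromosome 10 (80150889 to 80205572, minus strand). Its counts were 1328 and 1274 in WT and 1806 and 1631 in MEK5DD, without overlap, a log2 fold change of 0.40 (SE 0.08). The ratio of ANXA11 to S100A6 was thus lower in MEK5DD, at 0.44 to 0.70 times its WT value.

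The remaining annexins are described singly. ANXA3 (chromosome 4, 78551519 to 78610451, plus strand) had 436 and 478 in WT and 749 and 728 in MEK5DD, a log2 fold change of 0.69 (SE 0.09). Its groups were well apart and its MEK5DD replicates close together. ANXA4 (chromosome 2, 69644425 to 69827100, plus strand), known from secretory epithelia, had 81.9 and 88.5 in WT and 137 and 164 in MEK5DD (log2 fold change 0.81, SE 0.16). It overlaps AAK1 on the opposite strand, whose counts were nearly level between the groups (645 and 649 in WT, 661 and 716 in MEK5DD). Whether counting used strand is not given, so reads of the overlap could belong to either gene.

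ANXA6 and ANXA5 showed small differences. ANXA6 (chromosome 5, 151100712 to 151157882, minus strand) encodes the annexin with a doubled core, which acts at endosomes and in cholesterol traffic and is also known to bind S100 proteins. It had 2007 and 1782 in WT and 2732 and 2415 in MEK5DD, without overlap (log2 fold change 0.44, SE 0.08). ANXA5 (chromosome 4, 121667955 to 121697113, minus strand) had 4137 and 4101 in WT and 4868 and 4173 in MEK5DD. Its second MEK5DD library was hardly above WT, and the log2 fold change of 0.13 (SE 0.07) became 0.02 without MEK5DD replicate 1.

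**Figure D2:**
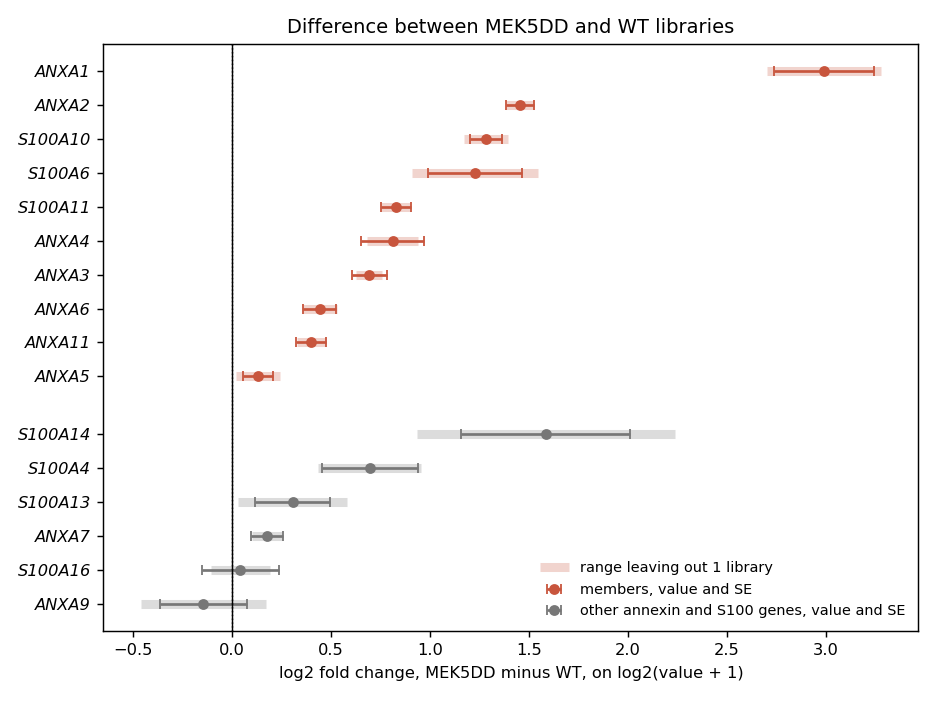
Log2 fold change, MEK5DD minus WT, on log2(value + 1) for the 10 genes (red) and the 6 other tested annexin and S100 genes (grey), with bars for the SE and pale bands for the range when 1 library is left out. The 10 genes run from 2.99 for ANXA1 to 0.13 for ANXA5, and the dotted line is the median of all genes tested (-0.002).

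The MEK5DD replicates did not sit at the same height. In 8 of the 10 genes MEK5DD replicate 1 was above replicate 2, against 52.2% of all tested genes, with ANXA1 and ANXA4 the exceptions. The median absolute log2 difference between replicates was 0.1997 over the 10 genes in MEK5DD and 0.103 in WT. Over all tested genes it was 0.148 and 0.0972. The call count of 9 depends on the variance model: it was 4 without the mean-variance trend (ANXA1, ANXA2, S100A10 and S100A11). Calls fell over all genes as well, from 1209 to 249 of the 15721 tested called higher. Without WT replicate 2 the log2 fold change was 0.36 for ANXA6 and 0.37 for ANXA11.

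Levels were compared between genes per kilobase of the main GENCODE v29 transcript, here the longest one tagged as principal (APPRIS). In WT the order was ANXA5 (2338 ± 14.6, mean and SD, n = 2), S100A11 (1704 ± 48.5), ANXA2 (1391 ± 74.3), S100A10 (1061 ± 50.3), ANXA6 (731 ± 61.4) and ANXA3 (276 ± 18.0), then ANXA11, S100A6, ANXA4 and ANXA1. No neighbours in that WT order overlapped. In MEK5DD the order at the top was ANXA2 (3814 ± 265), S100A11 (3023 ± 211), S100A10 (2592 ± 281) and ANXA5 (2565 ± 279). The last 2 of these overlapped, as did ANXA1 (59.1 ± 16.6) and ANXA4 (53.9 ± 6.88) at the bottom, and no other neighbours did. The order depends on the length used. With the union of all exons S100A11 came top in both groups. On that scale ANXA2 came below S100A11, ANXA5, S100A10 and ANXA6 in WT and below S100A11, S100A10 and ANXA5 in MEK5DD. ANXA11, whose main transcript is 6965 bases long, came above ANXA3 in both groups with the union of all exons.

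The shares of the annexin transcripts shifted from ANXA5 towards ANXA2. The level of ANXA5 itself did not fall, at 2348 and 2327 per kilobase in WT and 2763 and 2368 in MEK5DD. Its share fell because the sum over the annexin genes was higher in MEK5DD. Of the summed level per kilobase of the 9 listed annexin genes, ANXA2 made up 25.9% and 25.05% in WT and 43.5% and 43.9% in MEK5DD. ANXA5 made up 42.1% and 43.5% in WT and 30.0% and 28.7% in MEK5DD. With union exon lengths ANXA2 went from 10.3% and 9.92% to 20.5% and 20.9%, and ANXA5 from 51.2% and 52.7% to 43.2% and 41.7%, so ANXA5 remained above ANXA2 on that scale. Among the 8 listed S100 genes the shift was smaller: S100A10 made up 32.8% and 34.9% in WT and 42.5% and 41.8% in MEK5DD. S100A11 held the largest share in each library, at 55.6% and 53.1% in WT and 48.3% and 50.2% in MEK5DD.

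**Figure D3:**
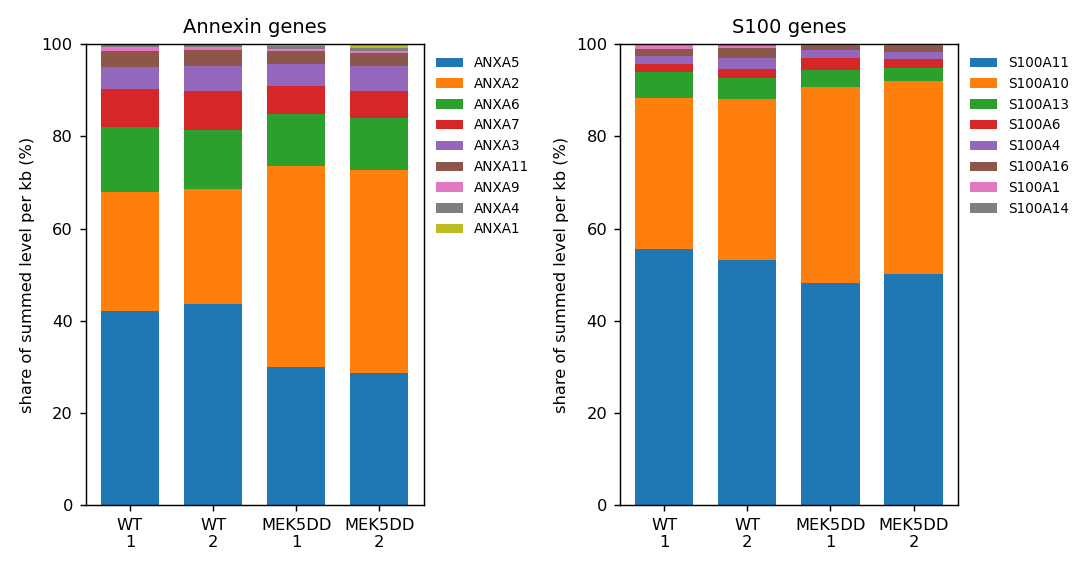
Share (%) of the summed level per kilobase of main transcript taken by each of the 9 listed annexin genes (left) and the 8 listed S100 genes (right) in each library, as stacked bars from 0 to 100. The orange ANXA2 block widens from 25.9% and 25.05% in WT to 43.5% and 43.9% in MEK5DD. The blue ANXA5 block narrows as a share of a larger sum.

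The rest of both families was mostly not listed or not called. Of 6 other annexin genes 4 were not listed, and of 17 other S100 genes 12 were not listed. Every listed gene had reads in every library. A gene that is not listed may therefore have had reads in some libraries, and its difference between the groups is unknown. Of the 6 other annexin and S100 genes that could be tested 1 was called higher and 0 lower (7.69% and 6.47% of all tested genes). Here edgeR also called 1 and DESeq2 0. S100A1, which was lower in MEK5DD, was below the filter on low values and so is not among these 6. By limma 3 of the 6 had an unadjusted p under 0.05. That threshold is looser than the one behind these shares, and the share of all genes that pass it was not counted. The called gene was S100A14, which encodes an epithelial S100 protein. Its counts were 6.17 and 16.7 in WT and 33.6 and 31.9 in MEK5DD, a log2 fold change of 1.58 (SE 0.43, limma adjusted p = 0.0278). These are few reads, and the call was lost without WT replicate 1 (adjusted p = 0.182), with DESeq2 (0.0867) and without the mean-variance trend (0.165).

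S100A4, a marker of motile and mesenchymal cells, had 31.7 and 45.8 in WT and 67.2 and 57.8 in MEK5DD and missed the threshold (log2 fold change 0.69, SE 0.24, limma adjusted p = 0.0784). The log2 fold change of S100A4 was 0.44 without WT replicate 1 and 0.95 without WT replicate 2. It was 0.59 without MEK5DD replicate 1 and 0.80 without MEK5DD replicate 2. With the replicate number as a block S100A4 passed (limma adjusted p = 0.0273), in a fit that called 3349 genes in place of 2226. ANXA7, an annexin with a long N-terminal tail, had 1011 and 974 in WT and 1181 and 1062 in MEK5DD (log2 fold change 0.17, SE 0.08, limma adjusted p = 0.178). Its log2 fold change was 0.10 without MEK5DD replicate 1 and 0.25 without MEK5DD replicate 2. S100A13, which takes part in the release of FGF1, had a log2 fold change of 0.30 (limma adjusted p = 0.324) and overlapped between the groups. That value became 0.03 without MEK5DD replicate 1 and 0.58 without MEK5DD replicate 2. S100A16 (0.04, adjusted p = 0.917 by limma) and ANXA9 (-0.15, adjusted p = 0.722 by limma) also overlapped between the groups. S100A1, which was below the filter on low values, went the other way from the 3 S100 members, at 15.9 and 9.37 in WT and 2.73 and 2.99 in MEK5DD, the latter from 3 reads in each library. S100A1 and S100A13 overlap on opposite strands, so reads of the overlap could belong to either.

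The genes around the 3 S100 members on chromosome 1 were also examined. S100A10 and S100A11 are 38115 bases apart, and S100A6 lies 1486691 bases beyond S100A11. Of 18 listed genes within 250 kb of these 3 genes, 17 were tested, and limma called 1 higher (S100A14) and 0 lower, a share near the 7.69% of all tested genes called higher. Their median log2 fold change was 0.12.

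ANXA2P2, a processed pseudogene on chromosome 9, followed ANXA2. It was singled out after its values were seen. Its counts were 23.8 and 13.5 in WT and 49.98 and 63.8 in MEK5DD (log2 fold change 1.60, SE 0.31, limma adjusted p = 0.00484, lost without the mean-variance trend at 0.0893). Its transcript matches ANXA2 at 1004 of 1020 bases (98.4%) without gaps, so reads of ANXA2 could have been counted on it, and its value is uncertain.

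Among 54 tested genes of 5 lists of proteins that act with annexins and S100 proteins, limma called 11 higher and 3 lower. The lists were chosen with earlier results of these data known, so their calls and p-values are given as a description. Of all tested genes 7.69% were called higher and 6.47% lower, and the counts of each list below stand against these shares. The median log2 fold change was 0.09, against -0.002 over all genes tested. The largest of these differences was that of AHNAK, a giant scaffold protein that binds annexin A2 with S100A10 at the plasma membrane. Its counts were 1316 and 1354 in WT and 3626 and 4087 in MEK5DD, a log2 fold change of 1.53 (SE 0.07, limma adjusted p = 9.21e-08). That size is close to those of ANXA2 (1.45) and S100A10 (1.28), and AHNAK was called under each of the 14 alternatives run.

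Of 9 tested binding partners 2 were called higher and 1 lower, with a median of 0.09. SRI, which encodes sorcin, a calcium-binding partner of annexins A7 and A11, had 983 and 939 in WT and 1354 and 1172 in MEK5DD (log2 fold change 0.39, limma adjusted p = 0.00936). PDCD6, which encodes ALG-2, a partner of annexins A7 and A11, went from 928 and 926 in WT to 725 and 687 in MEK5DD (-0.39, limma adjusted p = 0.00575). It overlaps AHRR on the same strand. The SRI call was lost without WT replicate 2 and the PDCD6 call without either WT library (adjusted p = 0.0893, 0.0695 and 0.0676).

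In the plasmin system, whose activation annexin A2 with S100A10 promotes on cells, 2 of 5 tested genes were called higher and 0 lower, with a median of 0.08. SERPINE2, a protease inhibitor, had 1236 and 1198 in WT and 1874 and 1829.9 in MEK5DD (log2 fold change 0.61, limma adjusted p = 0.000123). PLAU, the urokinase activator, had 320 and 363 in WT and 526 and 460 in MEK5DD (0.53, limma adjusted p = 0.00635, and 0.063 without WT replicate 1). PLAUR, the urokinase receptor, had 196 and 195 in WT and 179 and 177 in MEK5DD and was not called. PLG and SERPINF2 were not listed.

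In membrane repair 4 of 18 tested genes were called higher and 0 lower, with a median of 0.21. Log2 fold changes in this list ran from -0.59 to 0.72, both in genes of low count that were not called. CAPNS1, the regulatory subunit shared by the classical calpains, had 1723 and 1781 in WT and 2812 and 2690.0 in MEK5DD (log2 fold change 0.65, limma adjusted p = 4.64e-05), and it was called under each of the 14 alternatives. The other called differences were smaller. They were VPS4B (0.30, limma adjusted p = 0.0293), the calpain gene CAPN1 (0.25, adjusted p = 0.0255) and the ESCRT adaptor gene PDCD6IP (0.23, adjusted p = 0.0335), and each lost its call without either WT library and with DESeq2.

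Of 9 tested genes that set phosphatidylserine exposure 1 was called higher and 2 lower, with a median of 0.05. ATP11A, a flippase that moves phosphatidylserine to the inner leaflet, had 3272 and 3310.0 in WT and 2039 and 2286 in MEK5DD (log2 fold change -0.61, limma adjusted p = 0.000146). ATP8A1, another flippase, fell by 0.32 on the log2 scale (limma adjusted p = 0.0491), a call lost without WT replicate 1, WT replicate 2 or MEK5DD replicate 1 and with DESeq2. XKR8, a scramblase that acts in apoptosis, had 214 and 219 in WT and 317 and 304 in MEK5DD (log2 fold change 0.52, limma adjusted p = 0.00758). ANXA5, whose product binds the lipid these proteins distribute, was the least changed of the 10 members.

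Among 13 other EF-hand calcium sensors 2 were called higher and 0 lower, with a median of 0.01. Log2 fold changes in this list ran from -0.48 to 0.29, both in genes that were not called. CALU, a sensor of the secretory pathway, rose by a log2 fold change of 0.25 (limma adjusted p = 0.0147). Its call was lost without either WT library (0.341 and 0.175). Of the 14 calls in these lists, only those of AHNAK and CAPNS1 held without the mean-variance trend.

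**Figure D4:**
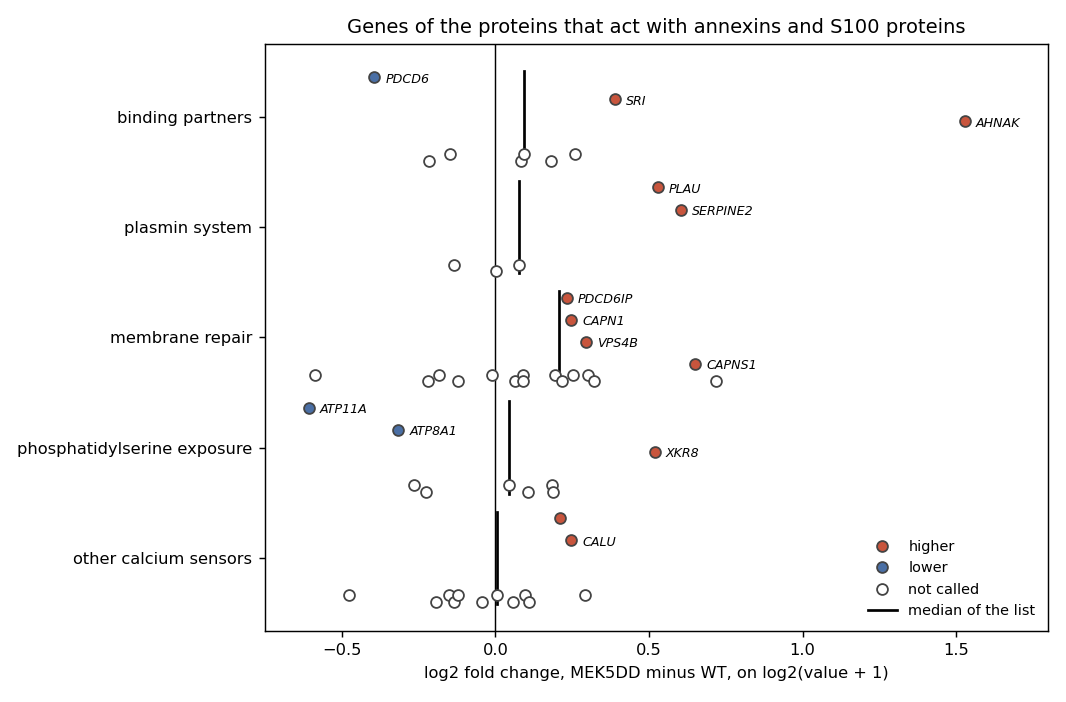
Log2 fold change, MEK5DD minus WT, on log2(value + 1) for the 54 tested genes of the 5 partner lists, 1 row per list, with called genes in colour and most of them named (red higher, blue lower), genes not called as open circles and the median of each list as a black line. AHNAK (1.53) lies far to the right of all the other genes, and the list medians lie between 0.01 and 0.21.

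MAP2K5, the gene introduced, had counts of 344 and 315 in WT and 3382 and 3558 in MEK5DD, which do not separate introduced from native transcripts. The recovered reads per library ran from 14908486 to 17628945. All 10 pluripotent stem cell markers were listed, with summed counts, most of them from POU5F1, LIN28A, PODXL, DNMT3B and DPPA4, of 161972 to 164187 in WT and 156900 to 164874 in MEK5DD. Among them limma called NANOG higher (adjusted p = 0.0117) and SOX2 lower (adjusted p = 0.0437). Markers of other cell types went both ways. The 4 listed of 10 fibroblast or feeder markers summed to 1706 to 1727 in WT and 2818 to 3010 in MEK5DD, with COL1A1, COL1A2 and TAGLN called higher by limma. PDGFRB was lower in MEK5DD (54.5 and 67.8, against 85.4 and 75.0 in WT) and not called, and COL3A1, DCN, LUM, POSTN, ACTA2 and FAP were not listed. The 5 listed of 7 endothelial markers summed to 2831 to 2889 in WT and 5490.1 to 5749 in MEK5DD, most of it KDR. Of these KDR and TEK were called higher, ERG was called lower (71.3 and 91.7 in WT, 26.4 and 21.9 in MEK5DD), VWF and CLDN5 were not called, and PECAM1 and CDH5 were not listed. Amnion or trophoblast markers (5 of 9 listed) summed to 448 to 485 in WT and 270 to 285 in MEK5DD, most of it GABRP. GABRP, KRT7 and IGFBP3 were called lower, GATA3 was called higher (7.05 and 15.6 in WT, 39.1 and 35.9 in MEK5DD), and TFAP2A was below the filter. Of 4 neural markers SOX1 and MAP2 were called lower, NES was called higher and PAX6 was below the filter. Of 6 mesendoderm markers 2 were listed: MIXL1 was called higher (89.8 and 94.8 in WT, 165 and 201 in MEK5DD) and EOMES was not called. Of 5 stratified epithelium markers 1 was listed, KRT10, which was not called, and of 6 blood or macrophage markers 0 were listed. Markers that are not listed may still have had reads in some libraries. The part of other cell types in the differences was not tested.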

How the data were processed

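The deposited table holds signal (read counts per gene that the authors had normalised) for 17472 genes in 4 libraries; the labels' protocols describe poly(A) RNA and paired-end reads. Per the submitters' processing notes, the tools included STAR, Trimmomatic 0.36, DESeq2 1.26.0 and featureCounts 1.5.3, with the build hg38; their roles were not stated. The strand setting of the counting was not given in the sources used here, nor was its annotation. Every value in a library was a whole multiple of its smallest value, within 0.001 for 100% of genes, and division by that value gave 14908486 to 17628945 reads per library. In MEK5DD replicate 2 that smallest value is 0.997, so there the recovery rests on departures of at most 6.86e-05. A spreadsheet had turned 23 symbols into dates. No listed gene is at 0 in any library, so a gene that is not listed is not thereby shown to be absent or unchanged.

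Libraries were compared with limma 3.58.1 (R 4.3.3), fitted to log2(value + 1) with its mean-variance trend. It covered the 15721 genes that reached a value of 10 in 2 or more libraries, and was tested on simulated data. P-values are two-sided with Benjamini-Hochberg adjustment over those genes, and 0.05 is the threshold. Fold changes on this scale understate those of low genes. The 14 alternatives were other pseudocounts (0.5, 5), filters (none, mean of at least 50), scalings (upper quartile, TMM), no mean-variance trend, a replicate block, each library left out, and, on the recovered reads, DESeq2 1.42.0 and the quasi-likelihood test of edgeR 4.0.16. With 1 library left out, the lone library is assumed to vary like the other group.

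The members and lists were chosen with earlier results of these data known. Named genes were the 10 members, the tested annexin and S100 genes, up to 4 called genes per partner list by size (1 of which is not reported here, though counts include it), MAP2K5, and called neighbours within 250 kb of the S100 members. ANXA2P2, ANXA2R, S100PBP, S100A1, AAK1, PLAUR and the named cell type markers are outside the rule: they were chosen after seeing their values. Coordinates and lengths came from GENCODE v29 (GRCh38), in which 97.8% of symbols were found. Promoters came from RefSeq (GRCh38.p14), where 10 of 10 members matched with 14 promoters.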

Additional observations from a re-analysis of the deposited data

How the results depend on the processing

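Across the 14 alternatives run, the log2 fold change of each of the 10 members was above 0, a direction that groups without overlap fix when a library is left out. That of ANXA5 ranged from 0.02 to 0.24. The scaling moved the median of all genes from -0.002 to -0.02 at most, and the split of calls from 1209 higher and 1017 lower to 1183 higher and 1230 lower with upper-quartile factors. Without the mean-variance trend 439 genes were called in place of 2226, 4 members in place of 9, 2 partner genes in place of 14, and 0 of the 6 other tested annexin and S100 genes in place of 1. With DESeq2 1358 genes were called, 9 partner genes, and 0 of the other annexin and S100 genes (1 at an unadjusted p under 0.05). Of the other annexin and S100 genes 2 were called without a filter on low values. The added one was S100A1, which was lower in MEK5DD. With a mean of at least 50, 0 of 5 were called, and 2 had an unadjusted p under 0.05. With 1 library left out the counts ranged from 1160 to 4629 for all genes, from 7 to 10 for members, from 0 to 4 for the other annexin and S100 genes, and from 6 to 26 for partner genes. The highest of these came without MEK5DD replicate 2.

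The replicate block gave 3349 genes, 9 members, 21 partner genes and 2 other annexin and S100 genes, the added one being S100A4. The labels do not say that the numbers pair the libraries, there are only 2 pairs, and deviations of same-numbered libraries correlated at 0.0469 over 15721 genes, so the libraries are taken to share only a number. Among the members ANXA1 (18 and 14 reads in WT) and S100A6 (42 and 38) rest on the fewest reads and have the largest SE (0.25 and 0.24).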

Other observations

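Genes named for binding these families were also looked up, after the values of the families were seen. ANXA2R, which encodes a receptor for annexin A2, had counts of 20.3 and 20.8 in WT and 32.7 and 24.9 in MEK5DD. The groups did not overlap, but it was not called (log2 fold change 0.46, SE 0.30, limma adjusted p = 0.367). S100PBP, which encodes an S100P-binding protein, had 1065 and 976 in WT and 977 and 934 in MEK5DD and was not called (log2 fold change -0.09, limma adjusted p = 0.487). The receptor genes FPR1 and FPR2, through which annexin A1 acts on leukocytes, were not listed.

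The summed level per kilobase of the 9 listed annexin genes was 5574 and 5344 in WT and 9207 and 8255 in MEK5DD, and that of the 8 listed S100 genes was 3128 and 3143 in WT and 6572 and 5729 in MEK5DD. ANXA2 and S100A10 were the genes whose shares of these sums grew by the most percentage points in both MEK5DD libraries.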
